A study of Mus musculus with 16 samples.

Results

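The comparison described here is H3K4me3 in the hippocampus of Kdm5c KO mice and of WT littermates under standard conditions. It rests on 4 of the 16 libraries of the series, 2 KO and 2 WT, chosen by their labels, and on all 35996 regions left after repeated rows were dropped. H3K4me3, trimethylation of lysine 4 of histone H3, was measured by chromatin immunoprecipitation with sequencing (ChIP-seq). All 4 libraries came from adult male mice, 2 to 4 months old, of a mixed background labelled F1:C57/129. Each library was made from the pooled hippocampal tissue of 2 mice, so that neurons, glia and vascular cells were measured together, and fewer cells of a type cannot be told apart from less of the mark per cell. The labels give the mutant only as KO Kdm5c and name no allele, promoter or Cre. Other libraries are used only beside this comparison. KO and WT mice of the same background were sampled after 1 h in a box with tubing and toys, called novelty here. A line labelled ifKO and its controls, ifWT, were of the C57BL/6J strain, and the sources used here do not say how that line was produced. For Kdm5C and for H3K4me1 there was a single library of each genotype, labelled C57BL/6J.

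Kdm5c is an X-linked gene whose product removes methyl groups from di- and trimethylated H3K4. H3K4me3 marks the starts of active and poised genes, where it is laid down by the Kmt2 and Setd1 methyltransferases, and it is scarce at most enhancers and in silent genes. In somatic cells, genes used only in germ cells are held silent, in part by a complex that contains E2f6, Mga, Max and Pcgf6 and binds their promoters. Loss-of-function variants of human KDM5C cause X-linked intellectual disability.

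Counts over the regions totalled 22055154 and 22566171 in the WT libraries and 23680512 and 26433417 in the KO libraries. Levels are given as CPM, read counts scaled to a common library size, and 3 counts, the floor used here, equal 0.113 to 0.136 CPM in these 4 libraries. The libraries of a group correlated across regions with r = 0.992 in WT and 0.991 in KO, on log2 CPM. Of the regions, 20020 lay at a gene start, within 2 kb of it, 9884 inside a gene and 6092 between genes. For genes without a known start, either end was taken as a start. The start of Kdm5c itself had 66.6 and 72.2 CPM in WT and 60.8 and 60.3 CPM in KO. Its log2 change was -0.20 ± 0.07 (SE, edgeR adjusted p = 0.047), and 9 of 16 other settings lost that call. A mark at the gene's start does not check a deletion inside it. In the Kdm5C libraries, the signal summed over their 2321 regions was 3835440 covered bases in WT and 852275 in KO, and for H3K4me1 645195 and 396072. The total depth of these libraries is unknown, so these sums do not compare levels. Marker genes of hippocampal neurons carried the mark, with 1901 and 2005 CPM summed over 24 starts of pyramidal and granule neuron genes in WT and 1906 and 1866 CPM in KO.

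H3K4me3 rose in KO at more regions than it fell at, and 1225 of the 1320 lower regions lay at gene starts. Of 35955 regions tested, 4821 (13.4%) were called, meaning an edgeR quasi-likelihood adjusted p under 0.05. The called regions were 3501 higher (9.74%) and 1320 lower (3.67%) in KO, and 10054 regions had an unadjusted p under 0.05. The median log2 change was 0.84 among the higher and -0.20 among the lower regions. At 4819 of the 4821 called regions the KO and WT libraries did not overlap, so a lack of overlap adds little to a call. Called changes of 2-fold or more numbered 1421 higher regions (3.95% of those tested) and 30 lower regions (0.0834%). Among the called regions 72.6% were higher, against 89.8% with libraries scaled by their totals, 82.4% with upper quartile factors, 79.2% with offsets fitted to region strength and 64.2% with RLE factors. The number of called regions was 2532 (2131 higher, 401 lower) without WT replicate 1 and 1984 (1851 and 133) without WT replicate 2. It was 2545 (2181 and 364) without KO replicate 1 and 3515 (2830 and 685) without KO replicate 2.

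**Figure D1:**
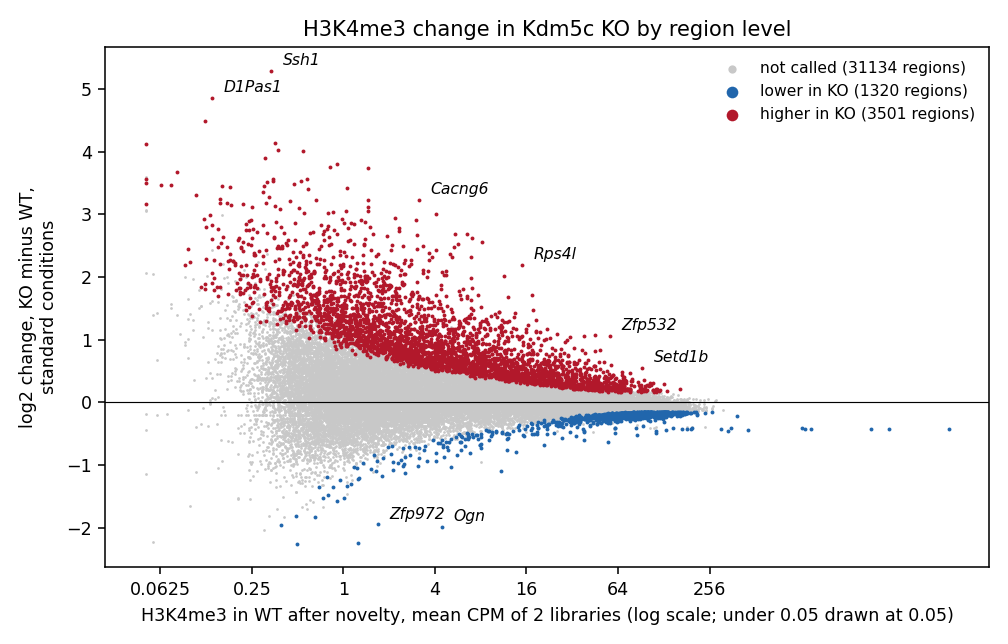
Each point is 1 of 35955 regions. The x axis is its mean H3K4me3 in the 2 WT libraries after novelty, which are not in the comparison (CPM, log scale), and the y axis is the log2 change of KO against WT under standard conditions. Red points are the 3501 regions called higher and blue points the 1320 called lower. The red points reach 5.29 at a region inside Ssh1 with little signal in WT, and the blue points have a median of -0.20 and lie mostly at strong regions.

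The level of a region before the comparison was read from the WT libraries after novelty, which are not among the 4 libraries compared. Of 6426 regions under 1 CPM there, 616 rose and 11 fell, and of 9516 regions at 1 to 4 CPM, 1117 rose and 38 fell. The share that rose was highest at 4 to 16 CPM, at 16.3% (973 of 5964 regions). At 64 CPM or more the picture was turned round, with 91 of 6275 regions higher (1.45%) and 833 lower (13.3%), none of them by 2-fold. The fall of strong regions depended on the scaling. With library totals 236 of these 6275 regions were lower (3.76%) and 93 (1.48%) with offsets fitted to region strength, against 285 higher.

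Some genes used in germ cells gained the mark. The genes of 3 lists, which were chosen with earlier results of these data known, had 50 distinct start regions, of which 15 were higher in KO and 1 was lower. The 16642 distinct start regions that represent genes stand for 21084 genes and are called all genes here. Of these regions 7.39% were higher and 6.93% lower. The list of meiotic chromosome axis and recombination genes had 9 of 22 measured members higher and none lower, with a median log2 change of 0.24 against -0.06 over all genes. The germ cell RNA and piRNA list had 4 of 13 higher and none lower, and the spermatid and testis list 3 of 16 higher and 1 lower, where Tex14 shares its region with Rad51c of the meiotic list. The lists held 40, 27 and 44 genes, and members without a start region were not measured. Across 12 other settings the meiotic count was 4 to 9, the germ cell RNA count 4 to 5 and the testis count 2 to 5. The meiotic count was 4 without WT replicate 1 and 5 with DESeq2, and 6 without WT replicate 2, without KO replicate 2 or with offsets fitted to region strength.

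The promoters of 6 germline genes are shown because their starts had under 2 CPM in both WT libraries and were higher in KO. Each runs from 250 bases before to 50 bases after the start of the gene, 5′ to 3′ on the gene's strand, from RefSeq on GRCm38.p6. Capitals mark the E-box CACGTG, which Mga and Max bind, and the E2f core TCCCGC or its reverse complement GCGGGA, which E2f6 binds. A further motif, TGACG or its reverse complement CGTCA, called CRE here, was searched as well and is not marked.
D1Pas1, chr1:186967166-186967465, plus strand: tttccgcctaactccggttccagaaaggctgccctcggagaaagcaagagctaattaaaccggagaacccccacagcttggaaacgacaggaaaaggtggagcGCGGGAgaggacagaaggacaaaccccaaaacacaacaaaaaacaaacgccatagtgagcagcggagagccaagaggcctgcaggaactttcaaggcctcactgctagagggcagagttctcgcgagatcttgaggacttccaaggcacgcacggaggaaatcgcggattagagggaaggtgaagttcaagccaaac
Cyct, chr2:76360404-76360703, minus strand: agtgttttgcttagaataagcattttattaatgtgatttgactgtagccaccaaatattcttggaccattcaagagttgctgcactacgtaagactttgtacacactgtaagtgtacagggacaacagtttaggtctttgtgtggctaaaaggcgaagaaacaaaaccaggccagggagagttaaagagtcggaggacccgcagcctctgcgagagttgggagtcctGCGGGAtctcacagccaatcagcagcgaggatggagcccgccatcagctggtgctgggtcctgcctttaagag
Ddx4, chr13:112652261-112652560, minus strand: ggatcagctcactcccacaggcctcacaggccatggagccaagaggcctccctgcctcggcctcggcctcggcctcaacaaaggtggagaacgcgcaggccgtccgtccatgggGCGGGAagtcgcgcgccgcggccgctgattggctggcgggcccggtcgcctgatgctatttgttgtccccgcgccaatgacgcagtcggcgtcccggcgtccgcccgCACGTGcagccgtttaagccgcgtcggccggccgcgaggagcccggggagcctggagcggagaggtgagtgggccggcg
Stk31, chr6:49395289-49395588, plus strand: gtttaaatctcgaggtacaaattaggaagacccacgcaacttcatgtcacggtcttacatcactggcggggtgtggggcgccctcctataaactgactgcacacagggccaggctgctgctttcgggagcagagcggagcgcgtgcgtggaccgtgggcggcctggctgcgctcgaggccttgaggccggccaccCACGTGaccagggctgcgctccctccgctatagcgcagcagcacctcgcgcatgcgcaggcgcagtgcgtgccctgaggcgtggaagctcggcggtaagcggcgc
Rec114, chr9:58741510-58741809, minus strand: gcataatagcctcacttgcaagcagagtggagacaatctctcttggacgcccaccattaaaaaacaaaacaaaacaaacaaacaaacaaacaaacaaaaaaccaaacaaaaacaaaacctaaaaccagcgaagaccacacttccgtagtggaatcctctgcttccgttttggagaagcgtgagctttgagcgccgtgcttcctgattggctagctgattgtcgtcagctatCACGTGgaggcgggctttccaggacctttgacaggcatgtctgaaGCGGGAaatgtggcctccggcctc
Sycp3, chr10:88459337-88459636, plus strand: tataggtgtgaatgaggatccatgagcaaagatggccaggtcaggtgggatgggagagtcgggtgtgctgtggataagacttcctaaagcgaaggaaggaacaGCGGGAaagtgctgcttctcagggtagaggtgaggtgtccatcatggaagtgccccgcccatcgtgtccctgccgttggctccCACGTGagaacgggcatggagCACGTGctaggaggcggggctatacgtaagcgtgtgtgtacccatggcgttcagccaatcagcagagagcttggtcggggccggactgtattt
The 15 risen germline genes with an entry in the promoter table were searched on both strands, over 17 promoters, and Rnf17 was not searched. The E-box stood in the promoters of 6 genes and the E2f core in those of 12, with 4 genes holding both and only Zpbp holding neither. Among these 17 promoters 41.2% held the E-box and 76.5% the E2f core. Among the 42 promoters of measured germline genes that were not higher, the shares were 11.9% and 45.2%. Of all 32851 RefSeq promoters, 7.15% held the E-box and 6562 promoters the E2f core, and of the 18058 at tested regions 9.43% and 33.0%. At all risen regions the shares were 8.93% and 20.4% of 1265 promoters. The CRE motif hardly differed between the germline groups, at 35.3% of the 17 promoters and 33.3% of the 42. It stood in 20.8% of all RefSeq promoters, 28.5% of those at tested regions and 19.4% of those at risen regions. No test was made of the shares of any motif. Some of the 17 overlap, as those of Stk31 do with each other and that of Tex14 with one of Rad51c, so they are not independent. A match is a run of letters, not a bound site.

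D1Pas1, a testis-expressed DEAD-box RNA helicase gene, had the largest log2 rise of the germline starts (chromosome 1, 186967324 to 186968158). Its counts were 3 and 1 in WT and 64 and 78 in KO. Both KO libraries lay far above both WT libraries. Pooled, this was 0.0896 CPM in WT (95% exact Poisson interval 0.0244 to 0.23) and 2.83 CPM in KO (2.39 to 3.34), intervals that cover counting error only. The log2 change was 4.86 ± 0.52 (SE, edgeR adjusted p = 1.8e-08), a value that depends on the prior count at so low a WT level. D1Pas1 is a close copy of the X-linked Ddx3x, and the sources used here do not say how reads shared by such copies were placed.

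Cyct, the gene of testis cytochrome c, had 0.0898 and 0.357 CPM in WT and 2.71 and 2.31 CPM in KO (chromosome 2, 76359863 to 76360580). The groups did not overlap, and the log2 change was 3.45 ± 0.49 (adjusted p = 3.7e-06). Ddx4, the germ cell helicase also called vasa, had 0.449 and 0.626 CPM in WT and 2.75 and 2.39 CPM in KO (chromosome 13, 112651877 to 112652600). Its log2 change was 2.24 ± 0.40 (adjusted p = 0.00012). In both genes the KO libraries lay above the WT libraries. The promoters shown for Cyct and D1Pas1 hold the E2f core and no E-box, and that of Ddx4 holds both. Stk31, a kinase-like gene of germ cells with a tudor domain, had 0.674 and 0.313 CPM in WT and 2.14 and 2.13 CPM in KO, a log2 change of 2.101 ± 0.36 (adjusted p = 8.7e-05). Rnf17, which is needed for spermatid development, had 1.35 and 1.12 CPM in WT and 2.79 and 3.27 CPM in KO (log2 change 1.297 ± 0.27, adjusted p = 0.00095).

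Among the meiotic genes, Sycp3, a component of the chromosome axis, had 1.26 and 1.47 CPM in WT and 4.80 and 3.60 CPM in KO (chromosome 10, 88459509 to 88460537). The log2 change was 1.61 ± 0.25 (adjusted p = 1.7e-05), and no other setting lost the call. Rec114, which takes part in the formation of meiotic DNA breaks, had 0.270 and 0.492 CPM in WT and 1.48 and 1.36 CPM in KO (log2 change 1.88 ± 0.45, adjusted p = 0.0041). In these genes too the KO and WT libraries did not overlap, as at nearly all called regions. The start shared by Rad51c and Tex14, a recombination gene and a gene of germ cell bridges, already carried the mark in WT, at 31.5 and 30.7 CPM, and had 47.4 and 47.1 CPM in KO. Its log2 change was 0.60 ± 0.07 (adjusted p = 2.0e-07). Stag3 and Smc1b, which encode meiotic cohesin subunits, had log2 changes of 0.62 ± 0.13 (adjusted p = 0.00083) and 0.48 ± 0.12 (adjusted p = 0.0056), and each shares its start region with a neighbouring gene. The mouse gene 4930447C04Rik, also called Six6os1, had 4.22 and 5.23 CPM in WT and 8.25 and 8.18 CPM in KO. Hfm1, Mnd1 and Terb1 were called with log2 changes of 0.32, 0.38 and 0.28, and 5, 5 and 7 of 16 other settings lost these calls.

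Other germline starts did not pass the test. Dazl, an RNA-binding regulator of germ cells, had 20.9 and 19.6 CPM in WT and 24.4 and 23.4 CPM in KO (adjusted p = 0.070). Dmc1, the meiotic recombinase, had 1.3 and 1.47 CPM in WT and 1.81 and 1.98 CPM in KO (adjusted p = 0.37), and Spo11, which makes the meiotic breaks, had 1.26 and 1.12 CPM in WT and 1.11 and 1.32 CPM in KO (adjusted p = 0.96). Prdm9, Zcwpw1 and Tdrkh had log2 changes of -0.04, -0.03 and -0.01, and each shares its region with a neighbouring gene. The lower germline region, with a log2 change of -0.17 (adjusted p = 0.047), is shared by Catsper2, a sperm channel gene, and the chaperone gene Pdia3, and 7 of 16 other settings lost that call. Of the 20 genes on a list of repressors of germline genes, 1 was higher and none was lower. That gene was Mga, with 45.6 and 44.9 CPM at its start in WT and 58.3 and 58.3 CPM in KO (log2 change 0.37 ± 0.07, adjusted p = 0.00023). E2f6 had a log2 change of -0.11 (adjusted p = 0.28) and Pcgf6 of -0.06 (adjusted p = 0.53).

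**Figure D2:**
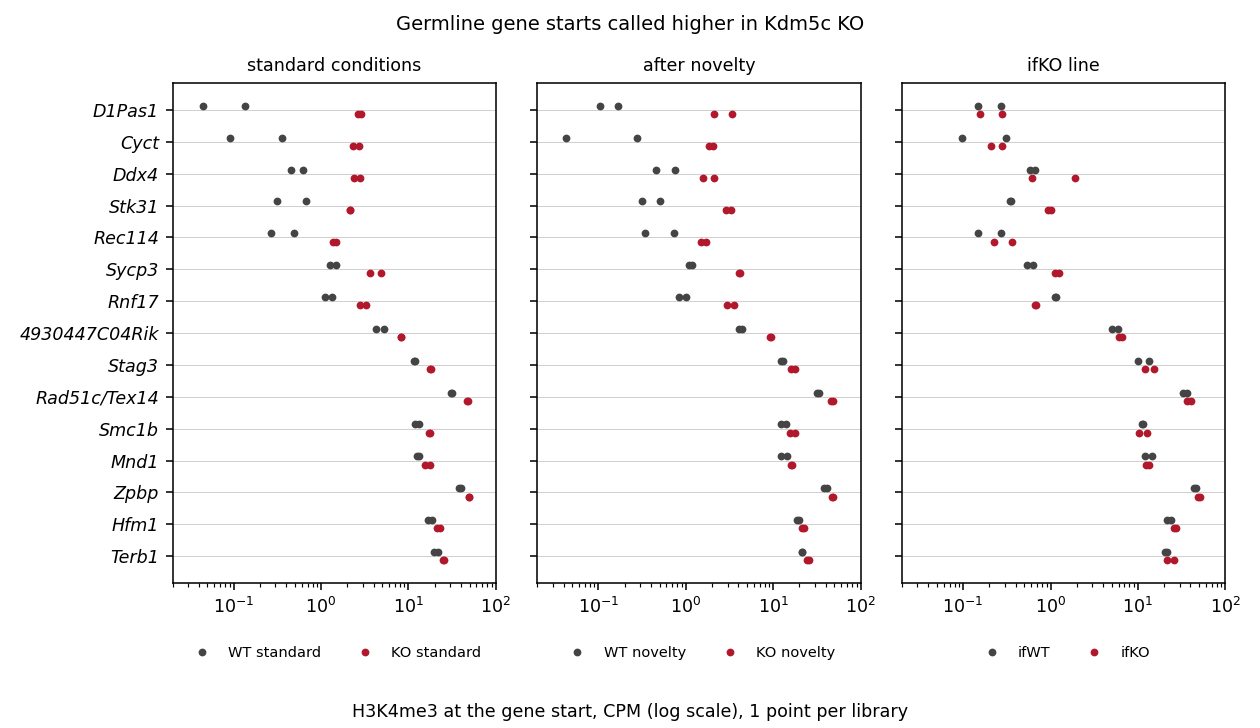
H3K4me3 at the 15 germline start regions called higher under standard conditions, as CPM on a log scale, with 1 point per library, for standard conditions (left), after novelty (middle) and in the ifKO line (right). Grey points are WT or ifWT and red points are KO or ifKO. From D1Pas1 to Rnf17 the WT points lie under 2 CPM and the KO points above them in the left and middle panels, while in the right panel the ifWT and ifKO points of D1Pas1 and Cyct overlap and all lie under 0.32 CPM.

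On the list of skeletal and cardiac muscle genes, 3 of 11 measured starts were higher (27.3%, against 7.39% over all genes) and none was lower. With start regions taken within 1 kb instead of 2 kb, 2 of 9 were higher. The median of the list was 0.27, and 0.0067 without WT replicate 2, where 3 members were again higher. Pgam2, the muscle phosphoglycerate mutase gene, had 5.12 and 3.89 CPM in WT and 19.96 and 18.8 CPM in KO (log2 change 2.103 ± 0.15, adjusted p = 3.6e-12). Acta1, skeletal muscle actin, had 17.5 and 19.04 CPM in WT and 40.9 and 38.7 CPM in KO (log2 change 1.12 ± 0.09, adjusted p = 3.8e-11). Myh7, a cardiac and slow muscle myosin gene, had 0.584 and 0.760 CPM in WT and 3.61 and 3.16 CPM in KO (log2 change 2.32 ± 0.29, adjusted p = 4.4e-07). In each of the 3 genes both KO libraries exceeded both WT libraries, and nearly all called regions likewise had no overlap. The master regulator Myod1 had 0.314 and 0.0894 CPM in WT and 0.329 and 0.220 CPM in KO (adjusted p = 0.74), and Des, the muscle intermediate filament gene, had 1.89 and 2.1 CPM in WT and 1.72 and 2.02 CPM in KO. Of 18 epithelial genes, Grhl2 and Krt1 were higher, with log2 changes of 0.71 ± 0.15 (adjusted p = 0.00089) and 0.58 ± 0.12 (adjusted p = 0.0013). Without WT replicate 2 only 1 of the epithelial genes was higher. Of 10 liver, pancreas and gut genes, Apoa1 was higher and the start shared by Apoa2 and Tomm40l was lower. None of the 10 was lower with any 1 library left out, and none was higher without WT replicate 1 or without KO replicate 1. With start regions taken within 1 kb, 0 of 9 were higher.

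The largest gains of all lay at regions that were nearly empty in WT, and most of those named were away from gene starts. Ssh1 encodes a phosphatase that acts on the actin regulator cofilin. A region in its body had 0.225 and 0.134 CPM in WT and 8.25 and 6.20 CPM in KO (chromosome 5, 113942805 to 113943958). Its log2 change was 5.29 ± 0.37 (adjusted p = 1.8e-12), while the start of Ssh1 had 50.9 and 47.2 CPM in WT and 44.1 and 47.6 CPM in KO (adjusted p = 0.35). A region inside Matn2, a matrix protein gene, went from 0 and 5 counts in WT to 59 and 77 in KO, and a region inside Lingo1, a neuronal membrane protein that restrains myelination, from 3 and 6 counts to 84 and 74. Their pooled levels were 0.112 CPM (interval 0.0364 to 0.262) and 0.202 CPM (0.0922 to 0.383) in WT and 2.71 CPM (2.28 to 3.21) and 3.15 CPM (2.68 to 3.69) in KO. Neither start differed by the test (adjusted p = 0.74 for Matn2 and 0.75 for Lingo1). The named gains between genes lay 10887 bp from the kinase gene Cdk19 and 23050 bp from Npsr1, a neuropeptide receptor gene. Near Cdk19 the KO libraries differed, at 7.27 and 3.93 CPM, yet both lay above the WT values of 0.359 and 0.313 CPM. The lncRNA start Gm16013 had 0.584 and 0.715 CPM in WT and 10.3 and 7.56 CPM in KO.

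Regions away from starts that carried some mark in WT also gained. A region inside Nacad had 4.58 and 2.95 CPM in WT and 31.1 and 29.2 CPM in KO, a log2 change of 2.999 ± 0.14 (adjusted p = 1.8e-16). A region inside Dpf1, a neuronal subunit gene of BAF chromatin remodelling complexes, had 8.31 and 7.33 CPM in WT and 49.2 and 43.4 CPM in KO (log2 change 2.56 ± 0.11, adjusted p = 1.5e-17). A region inside Depdc5, part of the GATOR1 complex that restrains mTORC1, had 2.70 and 2.50 CPM in WT and 21.1 and 18.3 CPM in KO (log2 change 2.92 ± 0.16, adjusted p = 2.3e-15). The starts of Dpf1 and Depdc5 moved the other way. The start of Depdc5 had 40.2 and 36.6 CPM in WT and 31.4 and 31.9 CPM in KO (log2 change -0.28 ± 0.07, adjusted p = 0.0086), and that of Dpf1 a log2 change of -0.27 ± 0.08 (adjusted p = 0.028). Of 798 genes with a risen region inside them and a measured start, 76 starts were higher (9.52%) and 55 lower (6.89%), so most starts of such genes were not called. Of 2958 genes whose inside regions had not risen, 141 starts were higher (4.77%) and 193 lower (6.52%).

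Some starts that already carried some mark in WT gained 2-fold or more. The median level over all starts was 35.8 CPM in WT, and of those named here only Zfp532 lay above it. Cacng6, a calcium channel gamma subunit gene, had 3.55 and 3.35 CPM in WT and 34.1 and 30.9 CPM in KO (chromosome 7, 3423573 to 3425168, shared with 3300002P13Rik), a log2 change of 3.23 ± 0.15 (adjusted p = 1.4e-16). Mettl24, a methyltransferase-like gene, had 11.4 and 9.25 CPM in WT and 42.3 and 41.5 CPM in KO (log2 change 2.02 ± 0.11). Ntn3, a netrin gene, had 17.9 and 17.5 CPM in WT and 56.1 and 60.1 CPM in KO (log2 change 1.71 ± 0.08). Gng7, a G protein gamma subunit, had 13.2 and 13.9 CPM in WT and 46.5 and 40.6 CPM in KO (log2 change 1.69 ± 0.10). No setting among 16 lost any of these 4 calls. Amh, the anti-Müllerian hormone gene of Sertoli cells, had 13.6 and 12.8 CPM in WT and 35.2 and 32.6 CPM in KO (log2 change 1.36 ± 0.10). Rps4l, a ribosomal protein S4-like gene, had 15.9 and 16.8 CPM in WT and 75.8 and 74.5 CPM in KO, and whether reads are shared with related genes was not tested. At Zfp532, a zinc finger gene, the start had 49.3 and 50.7 CPM in WT and 103 and 106 CPM in KO (log2 change 1.07 ± 0.06, adjusted p = 2.0e-14).

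The 5 genes with the most called regions were chosen for that count. At Nfix, a transcription factor gene of neural development, 9 of 15 regions were called and all 9 were higher. At Zmynd8, whose product is a reader of histone marks, 6 of 10 regions rose, and at Celf2, an RNA-binding protein gene, 6 of 15. St6galnac3 had 6 higher and 1 lower of 9. Tcf4 had 6 risen regions of 36, where 12.7% of all regions inside genes rose. In Zmynd8 a region at a start had 5.84 and 5.005 CPM in WT and 32.4 and 30.1 CPM in KO (log2 change 2.53 ± 0.13, adjusted p = 4.4e-16).

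The gains were distributed unevenly over kinds of regions. Regions at starts rose in 7.87% of cases (1575 of 20012) and fell in 6.12% (1225). Regions inside genes rose in 12.7% (1254 of 9866) and fell in 0.588% (58), and regions between genes rose in 11.1% (672 of 6077) and fell in 0.609% (37). The shares that rose were 7.37%, 9.2% and 7.13% with offsets fitted to region strength. Starts of long noncoding RNA (lncRNA) genes rose in 22.3% (593 of 2658) and starts of protein-coding genes in 5.52% (885 of 16020). Either end counted as a start for genes without a known start. A known start was at hand for 27025 of 49980 genes, and for 17492 of 21900 protein-coding genes. The lncRNA class may therefore hold more 3′ ends, which were not counted apart. The lncRNA starts held less of the mark per region, with a median of 3.95 CPM in WT over a median width of 927.5 bp, against 47.7 CPM over 1526 bp. Within each level the share was still higher for lncRNA starts. At 1 to 4 CPM 24.4% of lncRNA starts and 10.2% of protein-coding starts rose, at 4 to 16 CPM 28.1% and 10.6%, and at 16 to 64 CPM 22.2% and 6.39%. The shares were 16.7% and 5.95% with offsets fitted to region strength. These shares are descriptions over regions, which are not replicates. Starts assigned to miRNA genes rose in 21.2% (28 of 132). On the X chromosome 61 of 960 regions rose and 27 fell, which is 6.35% and 2.81% against 9.74% and 3.67% over all regions. Within 5 Mb of Kdm5c 3 of 60 rose and 2 fell (5.0% and 3.33%).

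**Figure D3:**
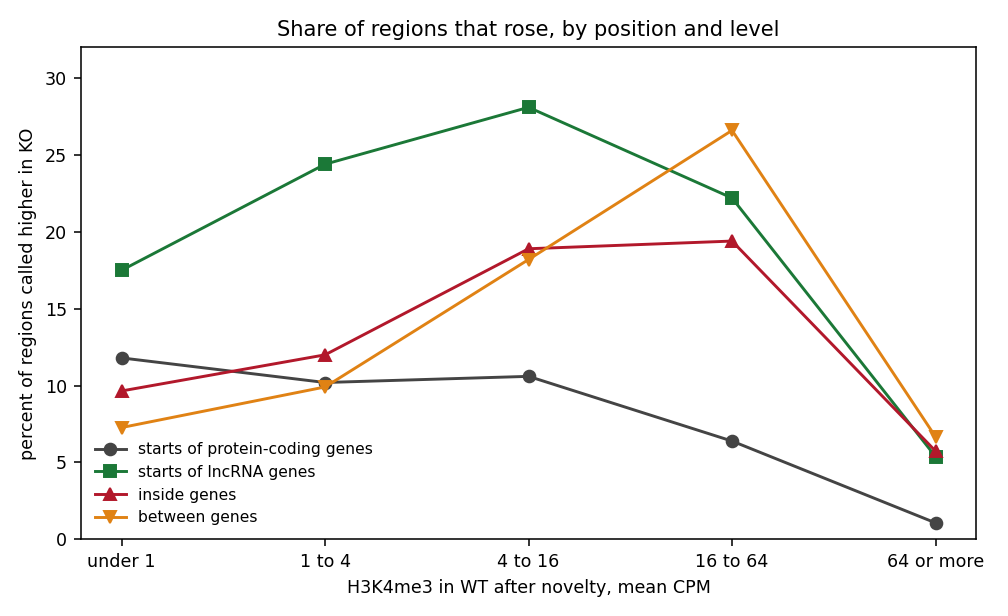
Percent of regions called higher in KO (y axis) by their mean level in WT after novelty (x axis, CPM classes), for starts of protein-coding genes, starts of lncRNA genes, regions inside genes and regions between genes. Starts of lncRNA genes lie above starts of protein-coding genes at each level, with 28.1% against 10.6% at 4 to 16 CPM, and all lines drop at 64 CPM or more. Starts include either end of genes without a known start.

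Kdm5C occupancy itself was deposited for 2321 regions, in 1 library per genotype, so that its values carry no test. Of the tested regions, 2314 overlapped one of these, nearly all at starts (2191). At starts, overlapping regions rose in 8.17% and others in 7.83%, shares that are not matched for level. The overlapping starts were stronger, with a median of 75.0 CPM in WT against 28.8 CPM. Of all starts, 7.56% rose at 16 to 64 CPM and 1.26% at 64 CPM or more. Whether overlapping starts rose more often than others of the same level was not tested. Away from starts, 52 of 123 overlapping regions rose (42.3%), against 1874 of 15820 others (11.8%). The overlapping ones were stronger, and at a matched level of 16 to 64 CPM the shares were 51.8% (44 of 85) and 17.9% (136 of 761). At the 231 risen regions in the Kdm5C set, the median Kdm5C signal was 1834 covered bases in WT and 350 in KO, against 1369 and 289 over all overlapping regions. The median H3K4me1 signal there was 401 covered bases in WT and 215 in KO, against 209 and 120.5 over all overlapping regions. The totals of these libraries are unknown, so a KO value cannot be set against a WT value as a level. A region inside Mga had the highest WT Kdm5C signal of the risen regions named, with 13548 covered bases against 9783 at the start of Mga, and its H3K4me3 was 48.6 and 47.2 CPM in WT and 75.4 and 73.5 CPM in KO (log2 change 0.64 ± 0.06). The starts of Klhl35, with 31.8 and 27.4 CPM in WT and 62.0 and 60.2 CPM in KO, and of Ptma, prothymosin alpha, with 23.7 and 23.8 CPM in WT and 42.8 and 41.7 CPM in KO, came next with 9763 and 8037 covered bases, beside Gm10190 with 8194 and Rnf227 with 7963. None of the regions named for the size of their gain, such as those at Ssh1, Cdk19, Rps4l, Nacad and Dpf1, overlapped the Kdm5C set. Only 6.44% of all tested regions did, with a median of 73.1 CPM in WT against 4.80 CPM at the others. The named regions were not matched to either group for level, and whether they overlapped less often than others was not tested.

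On 5 lists of genes that most cells use, starts were lower in some members and higher in none. This was not particular to them. It held for intellectual disability and autism genes (4 of 40 lower, 10.0%) and DNA replication genes (3 of 37, 8.11%). It also held for polycomb and DNA methylation genes (3 of 29, 10.3%) and interferon response genes (2 of 31, 6.45%). Over all genes 6.93% were lower. On the oxidative phosphorylation list 11 of 45 starts were lower and none was higher, with a median log2 change of -0.13. On the list of cytosolic ribosomal proteins 11 of 58 were lower (median -0.10), on that of splicing factors 9 of 40 (median -0.12), of proteasome and chaperone genes 5 of 46 (median -0.10) and of cholesterol synthesis genes 5 of 23 (median -0.09), with none higher on any of these lists (1 ribosomal protein gene was higher with offsets fitted to region strength). The share of lower members was 10.9% on the proteasome and chaperone list and at most 24.4% on the others. Of protein-coding starts at 64 CPM or more 13.4% were lower (773 of 5773), and of those at 16 to 64 CPM 5.46%. The share on the proteasome list lay between these 2. The lists were not matched to these levels, and no test was made of any list against them. Uqcrc2, a subunit of respiratory complex III, had 129 and 132 CPM in WT and 114 and 108 CPM in KO (log2 change -0.23 ± 0.05, adjusted p = 0.0033). Rpl15, of the large ribosomal subunit, had 115 and 117 CPM in WT and 98.6 and 98.8 CPM in KO (log2 change -0.24 ± 0.05, adjusted p = 0.0017). Scap, the sterol sensor that escorts SREBP, had 72.8 and 72.3 CPM in WT and 61.4 and 60.4 CPM in KO (log2 change -0.25 ± 0.06, adjusted p = 0.0043). These counts moved with the setting, from 0 to 18 for oxidative phosphorylation, 1 to 15 for ribosomal proteins and 0 to 11 for splicing factors. For proteasome and chaperone genes 0 to 9 and for cholesterol synthesis genes 1 to 5 were lower, with 0 and 1 without WT replicate 2 and 1 and 1 without KO replicate 2. The counts for oxidative phosphorylation, ribosomal proteins and splicing factors were 0, 1 and 0 without WT replicate 2, 1, 3 and 1 without WT replicate 1, 5, 3 and 2 without KO replicate 1, and 2, 1 and 4 without KO replicate 2. With library totals they were 3, 2 and 3, and 1, 2 and 1 with offsets fitted to region strength, while the medians stayed below 0 under each scaling.

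Among regulators of the actin cytoskeleton, 7 of 38 starts were lower (18.4%, against 6.93% over all genes and 13.4% of protein-coding starts at 64 CPM or more) and 1 was higher, and under other settings 3 to 9 were lower (3 without WT replicate 1, 4 without WT replicate 2 and without KO replicate 2). Cfl2, the gene of the actin-severing protein cofilin 2, had 128 and 139 CPM in WT and 94.8 and 94.3 CPM in KO (log2 change -0.50 ± 0.08, adjusted p = 7.0e-05). Cdc42, a small GTPase that shapes spines and growth cones, had 80.1 and 80.8 CPM in WT and 66.6 and 68.1 CPM in KO (log2 change -0.26 ± 0.05, adjusted p = 0.0013). Myo5b, a vesicle motor gene, had 29.1 and 31.2 CPM in WT and 22.0 and 21.4 CPM in KO (log2 change -0.47 ± 0.09, adjusted p = 0.00029). No setting lost these 3 calls. On the axon guidance list 6 of 45 were lower (13.3%, near the share of strong starts) and 2 higher, a count of lower members that was 0 to 7 under other settings (0 without WT replicate 2, 3 without WT replicate 1, 1 without either KO replicate). Among them were Epha7, with 161 and 163 CPM in WT and 141 and 141 CPM in KO, and Plxnb2, which was higher by a log2 change of 0.24 ± 0.06.

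Of 19 genes for enzymes and partners of H3K4 methylation, 1 was higher (5.26%) and 4 were lower (21.1%). Over all genes 7.39% were higher and 6.93% lower, and of protein-coding starts at 64 CPM or more 13.4% were lower. The list was not tested against these shares. Setd1b, the gene of an H3K4 methyltransferase, had 103 and 101 CPM in WT and 152 and 147 CPM in KO (log2 change 0.55 ± 0.05, adjusted p = 1.9e-09). No setting fitted to that region lost the call. The gain depended on how regions were assigned to genes. With start regions taken within 1 kb instead of 2 kb, none of the 19 genes was higher. Kmt2d and Men1 had log2 changes of -0.19 ± 0.05 (adjusted p = 0.014) and -0.19 ± 0.06 (adjusted p = 0.042). The sister genes of Kdm5c were not called, with log2 changes of -0.12 at Kdm5a (adjusted p = 0.14), -0.10 at Kdm5b (adjusted p = 0.32) and -0.25 at the Y-linked Kdm5d (adjusted p = 0.062). Kmt2a and Kdm5c were the other lower members. The count of lower members was 0 to 6 under other settings, namely 0 with offsets fitted to region strength or without WT replicate 2, and 1 with DESeq2, with limma-voom, without WT replicate 1 or without KO replicate 1.

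Genes of synapses and activity-induced genes were called seldom. Of 40 activity-induced genes 1 was higher, Dusp5, a phosphatase of ERK kinases, with 61.7 and 58.6 CPM in WT and 79.5 and 74.3 CPM in KO (log2 change 0.35 ± 0.06, adjusted p = 5.2e-05). With other settings 1 to 6 of the 40 were higher, 6 with offsets fitted to region strength, and the median of the list changed sign between scalings. Of 34 synaptic vesicle genes 2 were higher and 1 lower, of 36 glutamate and GABA receptor genes 1 higher and 2 lower, and of 33 postsynaptic genes 2 higher and 2 lower. Of 47 voltage-gated channel genes 2 were higher, Cacng6 among them, and none was lower. These shares were near or below the 7.39% and 6.93% over all genes. On these 4 lists, leaving out 1 library gave 0 to 2 members in each direction.

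**Figure D4:**
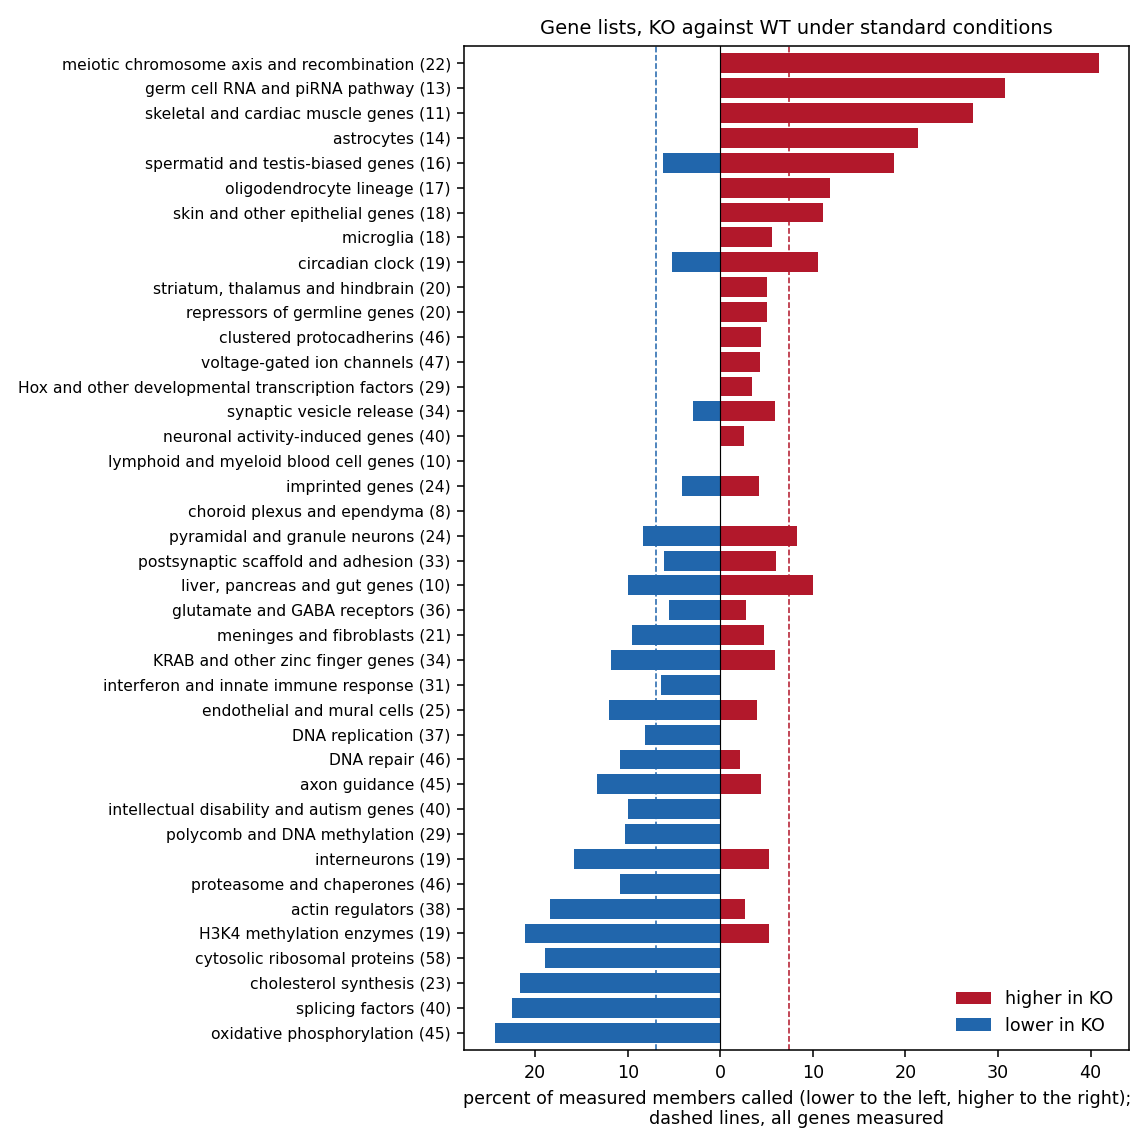
Percent of the measured members of each list (numbers in brackets) that were called higher in KO (red, to the right) or lower (blue, to the left). Dashed lines give the shares over the 16642 start regions that represent genes, 7.39% higher and 6.93% lower. The meiotic list reaches 40.9% higher, and the oxidative phosphorylation list 24.4% lower.

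The largest losses named were at least 2-fold and lay at regions under 15 CPM. Ogn, the gene of the matrix proteoglycan osteoglycin, had 5.79 and 7.15 CPM in WT and 1.56 and 1.69 CPM in KO (chromosome 13, 49608272 to 49610082), a log2 change of -1.99 ± 0.29 (adjusted p = 6.6e-06). Ogn stands on the marker list of meninges and fibroblasts, of which 2 of 21 measured members were lower (9.52%) and 1 was higher (4.76%). These shares were near those over all genes, 6.93% lower and 7.39% higher. The count of lower members was 1 without WT replicate 2 and 3 without KO replicate 2. The summed level of that list was 151.4 and 150.5 CPM in WT and 135.3 and 136.9 CPM in KO, its median log2 change was -0.25, and none of its regions was at 0 in all libraries. The other lower member was Mgp, with 9.12 and 9.43 CPM in WT and 5.63 and 5.03 CPM in KO (log2 change -0.80 ± 0.19, adjusted p = 0.0044), while the fibroblast factor Twist2 was higher, with 12.8 and 12.2 CPM in WT and 20.6 and 19.6 CPM in KO. The part of dissected meninges in these losses was not tested. The zinc finger gene Zfp972 had 2.83 and 3.44 CPM in WT and 0.452 and 1.14 CPM in KO (log2 change -1.95 ± 0.32, adjusted p = 4.3e-05). Of the 10 named losses, those at Ogn and Zfp972 and a region inside the lncRNA gene Gm35479 kept the call under all 16 settings, while Mob2 and Prickle1 lost it under 3 settings and Ptgdr under 2.

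Markers of other cell types were called in small numbers. Of 14 astrocyte genes 3 were higher (21.4%, against 7.39% over all genes), namely Ntsr2, Gfap and Slc7a10, with log2 changes of 0.46, 0.34 and 0.42, and their summed level was 552.8 and 528.9 CPM in WT and 574.0 and 576.8 CPM in KO. Only 1 of them was higher without WT replicate 2 or with offsets fitted to region strength, and 2 without either KO replicate. Gpr17 and Bcas1, genes of differentiating oligodendrocytes, were the 2 higher genes of 17 in their lineage, whose median was -0.12. Gpr17 had 9.21 and 8.45 CPM in WT and 14.6 and 14.7 CPM in KO. Of 25 endothelial and mural genes 3 were lower (12.0%, against 6.93% over all genes) and 1 was higher, with a median of -0.21. Their summed level was 566.6 and 540.6 CPM in WT and 488.0 and 528.5 CPM in KO. The count of lower members was 1 without either WT replicate and 5 with RLE factors or offsets fitted to region strength. Tbx18, a mural cell factor, had 19.6 and 17.1 CPM in WT and 9.65 and 11.6 CPM in KO (log2 change -0.79 ± 0.14, adjusted p = 0.00014), Cdh5 and Kdr were lower and Sox18 was higher. Among neuronal markers, the dentate granule cell genes Prox1 and C1ql2 were lower, with log2 changes of -0.37 ± 0.08 (adjusted p = 0.0014) and -0.33 ± 0.09 (adjusted p = 0.010), and Neurod6 and Fezf2 were higher, with 0.33 ± 0.08 (adjusted p = 0.0035) and 0.26 ± 0.07 (adjusted p = 0.013). Of 19 interneuron genes Gad1, which shares its start with Gad1os, Adarb2 and Prox1 were lower and Cck was higher. None of the 19 was lower without WT replicate 2 or with DESeq2, and the median of the list changed sign between scalings. Without WT replicate 2 none of the pyramidal and granule neuron genes was called. The part of cell composition in the other results was not tested.

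Regions of extreme counts moved together. The 6 regions with the highest CPM in WT after novelty, chosen after the values were seen, included only Gm33838 with an assigned gene. Together they held 17139 and 22653 CPM in WT and 14852 and 14839 CPM in KO, and all 6 were called lower with log2 changes of -0.41 to -0.42. In ifKO these 6 regions had log2 changes of 0.32, and their summed level was 41886 and 57360 CPM in ifWT and 76955 and 46728 CPM in ifKO. Their part in the other results was not tested.

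The same genotype contrast after novelty, in 4 other libraries, gave 11.1% of regions higher and 5.94% lower. This contrast and that of ifKO come from the same fit, with a shared estimate of the spread. Calls shared with the standard comparison are therefore not fully independent. Of the 3501 higher regions, 2615 (74.7%) were also higher after novelty, which is 65.7% of the 3981 higher there, and none was lower. Of the 1320 lower regions, 549 (41.6%) were also lower after novelty, which is 25.7% of the 2137 lower there, and none was higher. The test of the difference between both KO effects called 0.0% of regions with edgeR, and none with DESeq2 or limma-voom. An unadjusted edgeR p under 0.05 was found at 1055 of 35955 regions, less than the share of 0.05 that arises without any true difference. Of the 15 risen germline starts 12 were also higher after novelty. Among the losses, Ogn was lower after novelty too (log2 change -1.46, adjusted p = 0.00064), whereas Zfp972 (-0.52, adjusted p = 0.27) and Mob2 (-0.17, adjusted p = 0.75) were not called.

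In the ifKO line, 4.41% of regions were higher and 0.976% lower than in ifWT. Of the 3501 regions higher in KO, 1222 (34.9%) were higher in ifKO, which is 77.1% of the 1585 higher there, and 3 were lower. Of the 1320 lower, 61 (4.62%) were lower in ifKO. The difference between the KO and ifKO effects was called at 252 regions (0.701%), of which 234 had the more positive change in KO. Line and strain differ together between these cohorts and cannot be told apart. Of the 15 risen germline starts none was called higher in ifKO by edgeR, and the lowest adjusted p was 0.058, at Stk31. For D1Pas1 and Rnf17 and for the start of Rad51c and Tex14 the difference itself was called (adjusted p = 0.011, 0.020 and 0.028), and for Cyct (0.15), Ddx4 (0.59), Stk31 (0.87) and Sycp3 (0.81) it was not. Of the muscle genes, Acta1 (log2 change 1.05 in ifKO), Pgam2 (1.46) and Myh7 (1.47) were higher in ifKO as well. Cacng6 had a log2 change of 3.27 in ifKO and 3.23 in KO, and Setd1b 0.53 and 0.55. Rps4l had 0.24 in ifKO (adjusted p = 0.28) and 2.198 in KO, the smallest adjusted p of the difference among the named genes (5.2e-09).

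**Figure D5:**
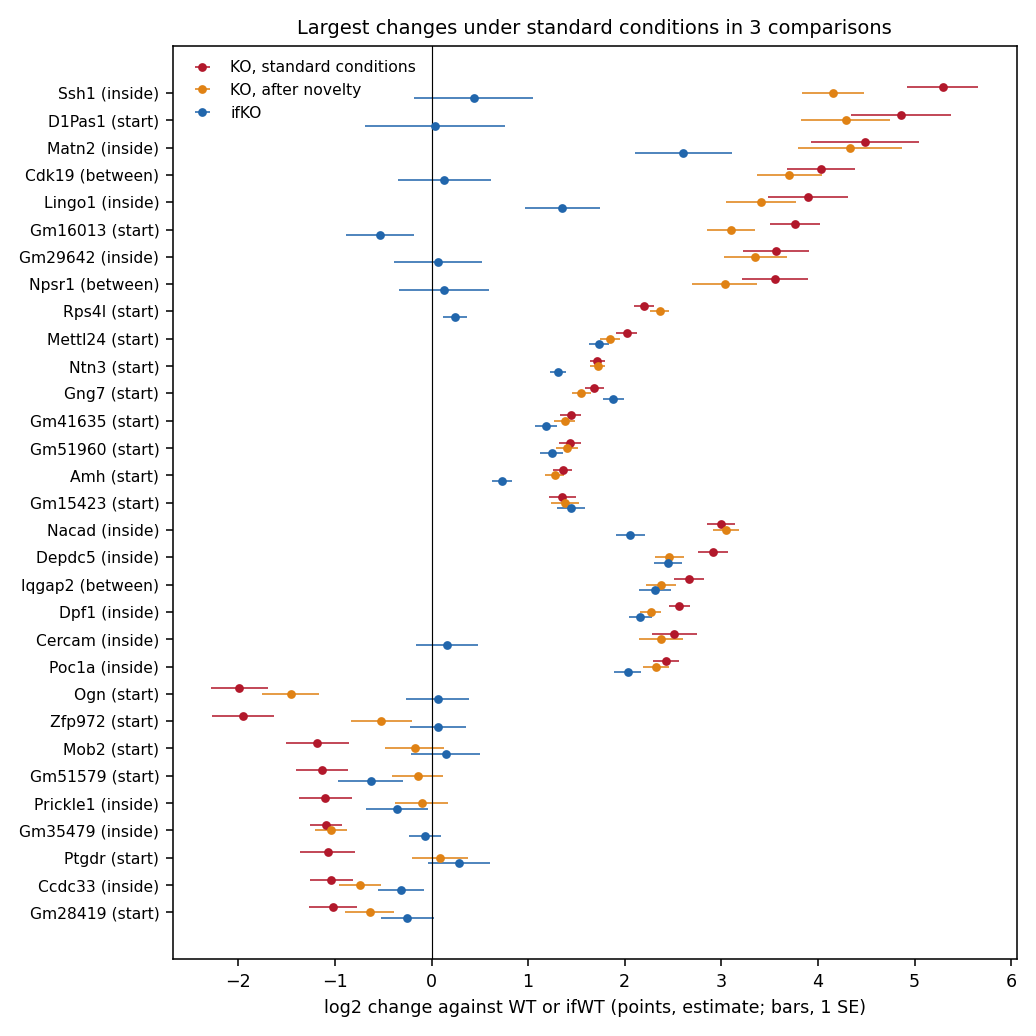
Log2 changes with 1 SE (x axis) of the genes with the largest changes under standard conditions (y axis, with the position of the region), for KO under standard conditions (red), KO after novelty (orange) and ifKO (blue), each against its own controls. Mettl24 and Gng7 have changes between 1.55 and 2.02 in all 3 comparisons, while the ifKO values of Ssh1, D1Pas1, Rps4l and Cercam are 0.44, 0.03, 0.24 and 0.16.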

How the data were processed

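H3K4me3 ChIP-seq was read from 12 libraries of pooled adult male mouse hippocampus, of which 4 form this comparison. The authors deposited whole-number read counts per region on mm10. Bowtie2 2.2.9, SAMtools 1.3.1, MACS2 2.1.0 and DESeq2 1.10.0 are named, per the submitters' processing notes, and the sources used here do not say how the regions were defined. Of 36005 rows, 9 repeats were dropped, and 35955 of 35996 regions passed the edgeR filter on low counts.

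Counts were fitted with edgeR 4.0.16 (R 4.3.3; TMM scaling, quasi-likelihood F test, Benjamini-Hochberg adjustment over all tested regions, threshold 0.05), with 1 mean per group over all 12 libraries, so that the groups share 1 estimate of the spread. Each standard error follows from the fold change and its F statistic. A CPM value is a count divided by the scaled library size. Library totals of 18181192 to 30435735 counts over regions set the precision, and Poisson intervals and floors cover counting error only. The labels do not say that libraries of a group are more than separate pools, so p-values measure the spread between these pools. The Kdm5C and H3K4me1 files, as deposited, hold signal as summed base coverage over 2321 regions, for 1 library per genotype, and were not tested.

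Regions were assigned to genes with RefSeq tables for GRCm38.p6, the same build. A region within 2 kb of a gene start was a start region. Of 49980 genes, 27025 have a start in the promoter table, and either end was used for the others. Otherwise a region was inside a gene, or between genes and assigned to the nearest protein-coding gene within 50 kb. Each gene is represented by 1 start region, and a region shared by several genes is counted once. Region coordinates are as in the deposited file, and whether its starts count from 0 or 1 is not given. Promoter motifs were searched on both strands.

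The genes named were the largest gains in 3 classes of WT level and position (8, 8 and 6 regions), the 10 largest losses from at least 2 CPM in WT, called members of the gene lists (up to 4 of the smallest p for most lists), the Kdm5 genes, the 5 genes with most called regions and the 6 risen regions with the highest Kdm5C signal. The largest gains and losses were taken only from called regions where the KO and WT libraries did not overlap. Others named with values, such as Kmt2a and germline genes not called, were chosen after their values were seen. Some genes under these rules are not reported here. The members and lists were chosen with earlier results of these data known. Alternatives were DESeq2 1.42.0, limma-voom (limma 3.58.1), other scalings (among them offsets fitted by loess to region strength in each library), filters, library sets and leaving out each library. Scripts were tested on simulated data.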

Additional observations from a re-analysis of the deposited data

Results flagged for a closer look

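The KO effect under standard conditions and the ifKO effect differed at 252 regions by edgeR's test of the difference, with Benjamini-Hochberg adjustment over all regions, with 234 more positive in KO and 18 less positive. Of these regions 224 were higher in KO, and 201 were higher in KO and not called higher in ifKO. By position 114 lay at starts, 99 inside genes and 39 between genes. The count was 94 to 234 without 1 library, 148 with DESeq2 and 99 with limma-voom. The 2 cohorts differ in line and strain together, which cannot be told apart.

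Each value that follows is the log2 change in KO minus the log2 change in ifKO, at the region named in the report. Among near-empty regions the difference was 4.85 at Ssh1, 4.82 at D1Pas1, 4.29 at Gm16013, 3.90 near Cdk19, 3.498 in Gm29642, 3.43 near Npsr1 and 2.54 in Lingo1. Among other gains it was 2.36 in Cercam, 2.06 at Rnf17, 1.96 at Rps4l, 1.02 at Gpr17, 0.94 in Nacad, 0.90 at Grhl2, 0.82 at En2, 0.63 at Amh, 0.51 at Zfp532 and 0.46 at the start of Rad51c and Tex14. It was negative at Ogn (-2.05), Zfp972 (-2.01), Gm35479 (-1.03) and St6galnac3 (-0.96).

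At En2, a homeobox gene of the midbrain and hindbrain, the mark was higher in KO (log2 change 0.39, adjusted p = 0.0067) and lower in ifKO (-0.43, adjusted p = 0.0077). At the region inside St6galnac3 both lines were higher, by 0.90 in KO and 1.87 in ifKO. Adjusted p-values of the difference ranged from 5.2e-09 at Rps4l to 0.046 at Lingo1 and St6galnac3.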

How the results depend on the processing

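The number of regions lower in KO moved most with the processing. Against 1320, it was 442 with library totals, 825 with upper quartile factors and 738 with offsets fitted to region strength. With the replicate number as a block it was 2243 over 4 libraries and 2163 over 8, against 1778 and 1819 over the same libraries without the block. The labels do not say whether libraries of the same replicate number were paired. The deviations of same-numbered WT and KO libraries correlated with r = -0.0036 under standard conditions and 0.0088 after novelty. Between standard conditions and novelty r was 0.0453 in WT and 0.0571 in KO. A correlation over all regions cannot settle whether a litter, batch or day was shared. Leaving out 1 library at a time gave 1984 to 3515 called regions, 1851 to 2830 higher and 133 to 685 lower. For the difference from the effect after novelty it gave 0 to 1 regions, and for the difference from ifKO 94 to 234, against 148 with DESeq2 and 99 with limma-voom. Of 157 named regions that were called, 66 kept the call under all 16 alternatives run per region and none reversed. The 8, 8 and 6 regions named for the size of their gain kept it, as did 3 of the 10 named losses. The scaling of list counts, the left-out libraries for lists and the classes of regions under other scalings were chosen after seeing the data. Depth limited regions under about 0.136 CPM, the level of 3 counts in the shallowest of the 4 libraries.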
